A study of Homo sapiens with 18 samples.

Results

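The insulin-like growth factor (IGF) genes described here were taken by name from 1 RPKM table (read counts scaled by transcript length and by the size of the library) of NIKS cells, an established line of immortalized human keratinocytes. The 8 names were IGF2, the receptors IGF1R and IGF2R, and the binding proteins IGFBP2, IGFBP3, IGFBP4, IGFBP6 and IGFBP7. Of these, 7 had a row among the 16472 genes of the table, and IGFBP3 was not analysed here. IGF2 was selected on its lower RPKM in the SP100 knockout (KO) line than in wild type (WT), so its levels between the lines are given as a description, without a test. The other members were taken as genes of the same system. They and the gene lists were chosen with earlier results of these data known, which the p-values do not take into account. SP100 is an interferon-inducible protein of nuclear bodies.

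The 18 libraries formed 6 groups of 3 biological replicates: WT untreated (0 h), WT after 12 h, WT after 48 h, and KO at the same 3 points. Treated cells received human interferon alpha 2a, a type I interferon, at 25 ng/mL, and the 0 h cells received none. All groups were grown on lethally irradiated J2/3T3 mouse fibroblasts in F medium, which contained insulin at 6 µg/mL. Each genotype was represented by 1 line, named Vec2 for WT and KO5 for KO in the table, so the knockout cannot be told apart from whatever else sets the lines apart. Untreated cultures at the later times were not analysed here, so hours in interferon and hours in culture cannot be told apart either. Nothing in the labels says that replicates came from separate thaws or derivations of a line, so p-values measure the spread between these cultures.

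In the IGF system, the peptides IGF1 and IGF2 bind the tyrosine kinase receptor IGF1R, which signals through IRS adaptor proteins to the PI3K, AKT and mTOR pathway and favours growth and survival. IGF2R binds IGF2 without such signalling and carries it to lysosomes, and it also sorts lysosomal enzymes. The binding proteins hold the peptides outside the cell, and proteases that cut them set the peptides free. IGF2 is an imprinted gene, expressed in most tissues from the paternal copy, and lies beside H19, a non-coding RNA expressed from the maternal copy. Skin keratinocytes carry IGF1R and are known to respond to IGFs made by dermal fibroblasts.

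The promoter windows of the pair of members with the highest levels, IGFBP2 and IGFBP6, are shown because both members changed with interferon in KO cells and only IGFBP2 was called between genotypes at every time. A window runs from 250 bases before to 50 bases after a RefSeq transcript start, on the plus strand of GRCh38.p14 for both genes. RefSeq held windows for 5 of the 7 members, and 3 of them for IGFBP2, of which the middle one is printed. Capitals mark a GC box, GGGCGG. IGFBP2 lies at chr2:216633170-216633469 and IGFBP6 at chr12:53097417-53097716.
IGFBP2: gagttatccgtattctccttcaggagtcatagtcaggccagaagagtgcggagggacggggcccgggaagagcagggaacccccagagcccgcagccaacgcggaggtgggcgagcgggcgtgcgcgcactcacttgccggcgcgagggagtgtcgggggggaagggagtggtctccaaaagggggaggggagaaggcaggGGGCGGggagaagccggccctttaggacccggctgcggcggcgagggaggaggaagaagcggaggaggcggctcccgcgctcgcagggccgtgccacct
IGFBP6: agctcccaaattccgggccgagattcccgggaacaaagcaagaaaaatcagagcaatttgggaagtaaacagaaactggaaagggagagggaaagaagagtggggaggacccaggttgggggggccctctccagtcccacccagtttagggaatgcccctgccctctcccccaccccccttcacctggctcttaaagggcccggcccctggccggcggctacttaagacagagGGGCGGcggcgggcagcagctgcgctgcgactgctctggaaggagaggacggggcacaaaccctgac
GGGCGG was searched on both strands, and its reverse complement is CCGCCC. It occurred once in each printed window, 2 times each in those of IGF1R and IGFBP4, and 6 times in that of IGF2R. The first IGFBP2 window had 1 match and the third had 0. Of all 35116 RefSeq windows, 45.0% had at least 1 match. An interferon-stimulated response element (searched as GAAA, any 2 bases, GAAA) is present in 3.57% of all windows, and a gamma-activated site (searched as TTCNNNGAA) in 7.66%. Neither had a match in the 7 windows of IGF1R, IGF2R, IGFBP2, IGFBP4 and IGFBP6. A TATA box (TATAAA) was matched once, in the window of IGFBP4, against 11.5% of all windows. The motifs can overlap each other, and a match or its absence describes only the letters in the window.

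The libraries had the keratinocyte markers of their label. All 12 keratinocyte markers reached 1 RPKM, with summed levels of 15273 to 18249 RPKM over the libraries. Of 14 fibroblast markers, 6 were in the table, and their summed level was 7.06 to 10.9 RPKM, led by FAP and COL1A1. That sum was 8.29 to 10.8 in untreated WT and 8.54 to 9.04 RPKM in untreated KO. Single fibroblast markers ranged more widely in fold over the libraries than the sum, such as TWIST1 from 0.26 to 2.74 and PDGFRB from 0.01 to 0.52 RPKM. Of 3 immune markers CD68 alone was in the table, and it was higher in interferon. Its WT libraries ranged from 18.6 to 20.0 RPKM at 0 h and from 50.6 to 56.7 at 12 h, and its KO libraries from 14.4 to 15.4 and from 43.3 to 50.2 RPKM. Its part in the results was not tested. The total number of reads is unknown, and the depth of the libraries relative to each other spanned 1.50-fold. SP100 itself was below WT in every KO library at its own time. The KO means at 0, 12 and 48 h were 50.5%, 55.9% and 46.9% of WT, so transcript from the gene was still measured in the KO line.

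IGF2, the growth factor of the set (ENSG00000167244, chromosome 11), was the member that differed most between the lines. Replicates 1 to 3 of untreated WT had 3.69, 3.37 and 3.24 RPKM, and those of untreated KO had 0.34, 0.29 and 0.45 RPKM. After 12 h in interferon the WT libraries were at 0.91, 1.38 and 1.09 and the KO libraries at 0.14, 0.21 and 0.27 RPKM. After 48 h the WT libraries were at 2.47, 2.48 and 2.27 and the KO libraries at 0.27, 0.41 and 0.34 RPKM. All KO libraries lay below all WT libraries, also when different times were compared, and the KO means at 0, 12 and 48 h were 10.5%, 18.3% and 14.1% of WT. At the same 3 times, 23.6%, 21% and 20.2% of all genes tested had no overlap between the lines, in either direction. On the log2(RPKM + 1) scale used for the fits, the difference KO minus WT was -1.71, -0.81 and -1.35 (SE 0.11). With a pseudocount of 0.1 in place of 1 it was -2.95, -2.00 and -2.52, since a pseudocount of 1 shrinks the difference of a gene below 1 RPKM. In the bulk cultures, fewer cells with IGF2 RNA and less of it per cell cannot be told apart. IGF2 reached 1 RPKM in 8 libraries, all of them WT, and so passed the filter on low values (1 RPKM in at least 3 libraries) only through WT.

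**Figure D1:**
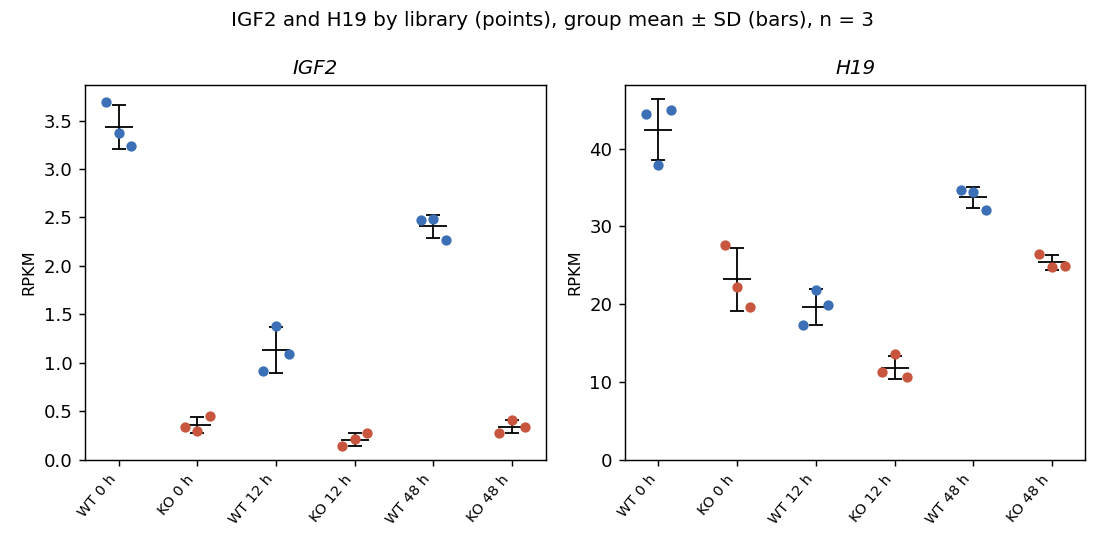
RPKM of IGF2 and H19 in each library (points; WT blue, KO red), with the group mean and SD of 3 libraries (bars), by genotype and hours in interferon. KO libraries sit below WT libraries of the same time for both genes, and the 12 h groups are the lowest of each genotype in mean. Of all genes tested, 23.6%, 21% and 20.2% had no overlap between the lines at 0, 12 and 48 h, in either direction.

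In WT cells IGF2 fell with interferon and was higher again at 48 h than at 12 h. The mean went from 3.43 ± 0.232 RPKM at 0 h to 1.13 ± 0.237 at 12 h and 2.41 ± 0.118 at 48 h (SD, n = 3), which is 32.8% and 70.1% of the untreated mean. The fall at 12 h was -1.06 on the log2 scale (SE 0.11, limma adjusted p = 1.23e-06), and the difference of 48 h from 12 h was 0.69 (limma adjusted p = 0.000162). The groups of the 3 times did not overlap in WT, as was so for 53.7% of all genes at 12 h against 0 h, 32.6% at 48 h against 0 h and 47.2% at 48 h against 12 h. The deficit at 48 h against 0 h was -0.38 with a limma adjusted p of 0.03, and this call was lost with a pseudocount of 0.1 (adjusted p = 0.209) and when any of its 6 libraries was left out (adjusted p = 0.0544 to 0.11). In KO cells the means were 0.36 ± 0.0819, 0.207 ± 0.0651 and 0.34 ± 0.07 RPKM. The KO libraries at 12 h lay below those at 0 h, at 57.4% of their mean (55.2% of all genes had no overlap there), while those at 48 h overlapped both earlier groups. The limma test did not call KO at 12 h against 0 h (-0.17, adjusted p = 0.206), and with a pseudocount of 0.1 the value was -0.59 (adjusted p = 0.0554). The KO minus WT difference in the interferon change, 0.89 at 12 h and 0.36 at 48 h, rests on the contrast IGF2 was chosen for and is given without a test.

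Some reads counted for IGF2 could belong to genes that share its position. GENCODE release 29 places INS-IGF2, MIR483, AC132217.1 and another protein-coding entry named IGF2 (ENSG00000284779) over IGF2 on its strand, and IGF2-AS on the other. Of these, AC132217.1, annotated as a non-coding RNA that overlaps the 3 prime end, had a row. It was at 2.61 ± 1.74, 1.99 ± 0.913 and 1.82 ± 0.975 RPKM in WT at 0, 12 and 48 h. In KO it was at 0.14 ± 0.135 and 0.09 ± 0.0819 RPKM at 0 and 48 h, and was listed at 0 in each KO library at 12 h. The levels of both genes are therefore uncertain, and both were low in the KO line. Whether reads from the mouse feeder cells were also counted for these or other members was not tested.

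H19, the imprinted neighbour of IGF2 (ENSG00000130600), was also lower in the KO line. Untreated WT libraries had 44.4, 37.9 and 45.0 RPKM and untreated KO libraries 27.6, 22.3 and 19.7 RPKM. The KO mean was 54.6% of the WT mean at 0 h (-0.85 on the log2 scale, SE 0.11, limma adjusted p = 0.000169) and 60.2% at 12 h (-0.69, adjusted p = 0.00161). At 48 h it was 75.2% (-0.40) and was not called (limma adjusted p = 0.059). Median-of-ratios scaling gave an adjusted p of 0.0479 there, and a fit on the libraries of that comparison alone 0.00981. H19 fell at 12 h in interferon in both lines, from 42.4 ± 3.95 to 19.7 ± 2.30 RPKM in WT (-1.07, limma adjusted p = 1.52e-06) and from 23.2 ± 4.04 to 11.8 ± 1.52 in KO (-0.91, adjusted p = 7.11e-06). At 48 h H19 was at 33.7 ± 1.40 RPKM in WT and 25.4 ± 0.977 in KO. The interaction of genotype with interferon was not called for H19 at 12 h (0.17, limma adjusted p = 0.955) or 48 h (0.46, adjusted p = 0.714). Of the 11 genes of the 11p15 neighbourhood list that were tested, which include H19, H19 was the only gene called between the lines at 0 h and at 12 h. None was called at 48 h by limma, where 2 had an unadjusted p under 0.05. Of all genes tested, 4.89%, 3.62% and 4.19% were called at 0, 12 and 48 h, so few calls would be found in any list of this size.

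In levels, which RPKM scales per transcript length, the members kept much the same order in the 6 groups. IGFBP2 had the highest mean, followed by IGFBP6, IGF2R and IGF1R. IGFBP2 and IGFBP6 overlapped in WT at 12 h and at 48 h and were apart in the other groups. IGF2 was the fifth in every WT group, where it overlapped IGFBP4 at 12 h, and the last of the 7 in every KO group. IGFBP4 and IGFBP7 lay near 1 RPKM and overlapped in each WT group, while in KO IGFBP7 was above IGFBP4 at each time.

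**Figure D2:**
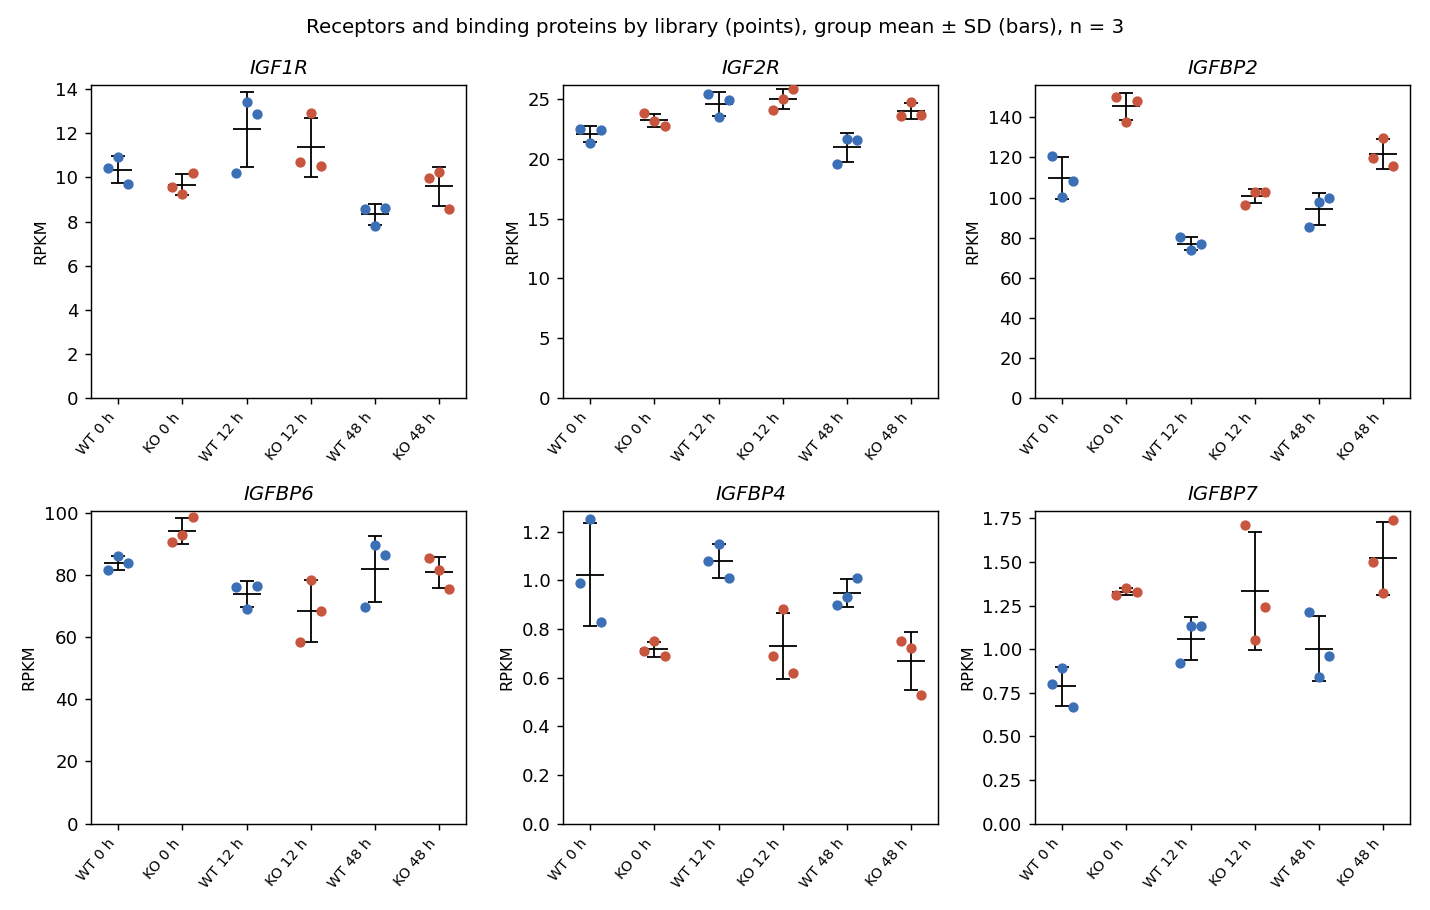
RPKM of the other 6 members in each library (points; WT blue, KO red), with group mean and SD of 3 libraries (bars). IGFBP2 is higher in KO at each time and lowest at 12 h in both lines. IGF2R spans a narrow range, from 19.6 to 25.9 RPKM, and IGF1R runs from 7.78 to 13.4 RPKM.

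IGF1R, the receptor through which both IGF peptides signal (ENSG00000140443, chromosome 15), had similar levels in both lines. Untreated WT libraries had 10.4, 10.9 and 9.69 RPKM and untreated KO libraries 9.58, 9.26 and 10.2 RPKM. At 12 h WT was at 10.2, 13.4 and 12.9 and KO at 10.7, 12.9 and 10.5 RPKM, and at 48 h WT was at 8.59, 7.78 and 8.62 and KO at 9.98, 10.2 and 8.59 RPKM. The genotypes overlapped at each time, and the differences of -0.09, -0.09 and 0.18 on the log2 scale (SE 0.10) were not called (limma adjusted p = 0.701, 0.71 and 0.385). In WT, IGF1R was lower at 48 h than at 12 h by the limma test (-0.49, adjusted p = 0.00102). In KO the same difference was -0.22 and was not called (limma adjusted p = 0.0823), except with median-of-ratios scaling (-0.30, adjusted p = 0.0198). The 12 h values against 0 h were 0.21 in WT (adjusted p = 0.0954) and 0.21 in KO (adjusted p = 0.0908), and median-of-ratios scaling turned both into calls (0.30, adjusted p = 0.0214, and 0.31, adjusted p = 0.0165).

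IGF2R, which clears IGF2 (ENSG00000197081, chromosome 6), varied least among libraries. Untreated libraries had 22.5, 21.3 and 22.5 RPKM in WT and 23.8, 23.2 and 22.7 in KO. At 12 h they had 25.4, 23.5 and 24.9 in WT and 24.1, 25.0 and 25.9 in KO, and at 48 h 19.6, 21.7 and 21.6 in WT and 23.6, 24.8 and 23.7 in KO. In WT it rose at 12 h by 0.15 (limma adjusted p = 0.0208) and was lower at 48 h than at 12 h (-0.22, adjusted p = 0.00206). The rise was lost without WT replicate 2 at 0 h or WT replicate 1 or 3 at 12 h (adjusted p = 0.0611 to 0.0827) and in a fit on its own 6 libraries (0.0524). At 48 h all KO libraries lay above all WT libraries (20.2% of all genes had no overlap there), with a difference of 0.19 (limma adjusted p = 0.0354). That call was lost in a fit on those libraries alone (adjusted p = 0.182), and without WT replicate 1 (0.143) or KO replicate 1 (0.0708), 2 (0.127) or 3 (0.0716). In KO at 12 h the change was 0.10 (adjusted p = 0.0943), and it was called with median-of-ratios scaling (0.21, adjusted p = 0.00218). The KO difference of 48 h from 12 h was -0.06 (limma adjusted p = 0.386), and that scaling called it too (-0.14, adjusted p = 0.0236).

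IGFBP2, a binding protein for both IGF peptides (ENSG00000115457, chromosome 2), was higher in KO at every time. Untreated WT libraries had 120.9, 100.4 and 108.2 RPKM and untreated KO libraries 150.4, 137.9 and 148.4 RPKM. At 12 h WT had 80.3, 73.6 and 76.9 and KO 96.5, 102.8 and 102.8 RPKM. At 48 h WT had 85.1, 98.0 and 99.7 and KO 119.6, 129.9 and 115.5 RPKM. The groups did not overlap, and the KO mean was 133%, 131% and 129% of the WT mean. Non-overlap between the lines was found for 23.6%, 21% and 20.2% of all genes tested at 0, 12 and 48 h. The log2 differences were 0.41, 0.38 and 0.37 (SE 0.07, limma adjusted p = 0.00237, 0.00443 and 0.00554). IGFBP2 fell at 12 h in interferon in both lines, with changes of -0.50 in WT (limma adjusted p = 3.12e-05) and -0.53 in KO (adjusted p = 1.63e-05). At 48 h it was above its 12 h level again, by 0.29 in WT (limma adjusted p = 0.00478) and 0.27 in KO (adjusted p = 0.00609). Against 0 h it was at -0.22 in WT (adjusted p = 0.0534) and at -0.26 in KO (adjusted p = 0.0234), a call lost without KO replicate 1 or 3 at 0 h or at 48 h (adjusted p = 0.066 to 0.091).

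IGFBP6, which prefers IGF2 over IGF1 (ENSG00000167779, chromosome 12), was called lower at 12 h in KO cells. Untreated libraries had 81.7, 86.1 and 83.8 RPKM in WT and 90.6, 92.9 and 98.6 in KO. At 12 h they had 76.0, 69.0 and 76.4 in WT and 58.6, 78.4 and 68.4 in KO, and at 48 h 69.7, 89.6 and 86.3 in WT and 85.5, 81.6 and 75.6 in KO. The change at 12 h was -0.46 in KO (SE 0.10, limma adjusted p = 0.00087) and -0.18 in WT, where it was not called (adjusted p = 0.133) except in a fit on its own 6 libraries (0.0191). The difference between these changes, -0.28, was not called either (limma adjusted p = 0.866). A difference of 0.25 between 48 and 12 h in KO had a limma adjusted p of 0.0498 and was lost without KO replicate 1 or 3 at 12 h or KO replicate 1 or 2 at 48 h (adjusted p = 0.0912 to 0.256), and with median-of-ratios scaling (0.208). Between the lines IGFBP6 differed by 0.16, -0.12 and -0.01 at 0, 12 and 48 h, and none of these was called (limma adjusted p = 0.398, 0.599 and 0.978).

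IGFBP4, whose release of IGF depends on the protease PAPPA (ENSG00000141753, chromosome 17), was low in all groups. It ranged from 0.83 to 1.25 RPKM in WT and from 0.53 to 0.88 in KO, and the lines did not overlap at any of the 3 times, as was so for 23.6%, 21% and 20.2% of all genes. It reached 1 RPKM in 5 libraries, all WT, so it passed the filter through the genotype in which it is high. The log2 differences of -0.23, -0.27 and -0.23 (SE 0.11) were not called by limma, and nothing is read from that test. IGFBP7, a secreted relative with weak binding of IGFs (ENSG00000163453, chromosome 4), lay the other way. Untreated libraries had 0.80, 0.89 and 0.67 RPKM in WT and 1.31, 1.35 and 1.33 in KO. The log2 differences were 0.38, 0.17 and 0.33 (SE 0.12) at 0, 12 and 48 h and were not called (limma adjusted p = 0.0849, 0.519 and 0.16), while a fit without the variance trend called the first (0.0348). IGFBP7 reached 1 RPKM in 12 libraries, of which 9 were KO. GENCODE places POLR2B, at 54.3 to 60.8 RPKM in group mean, over IGFBP7 on the opposite strand. Whether the authors' counting used strand is not given in the sources used here, so the level of IGFBP7 is uncertain.

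**Figure D3:**
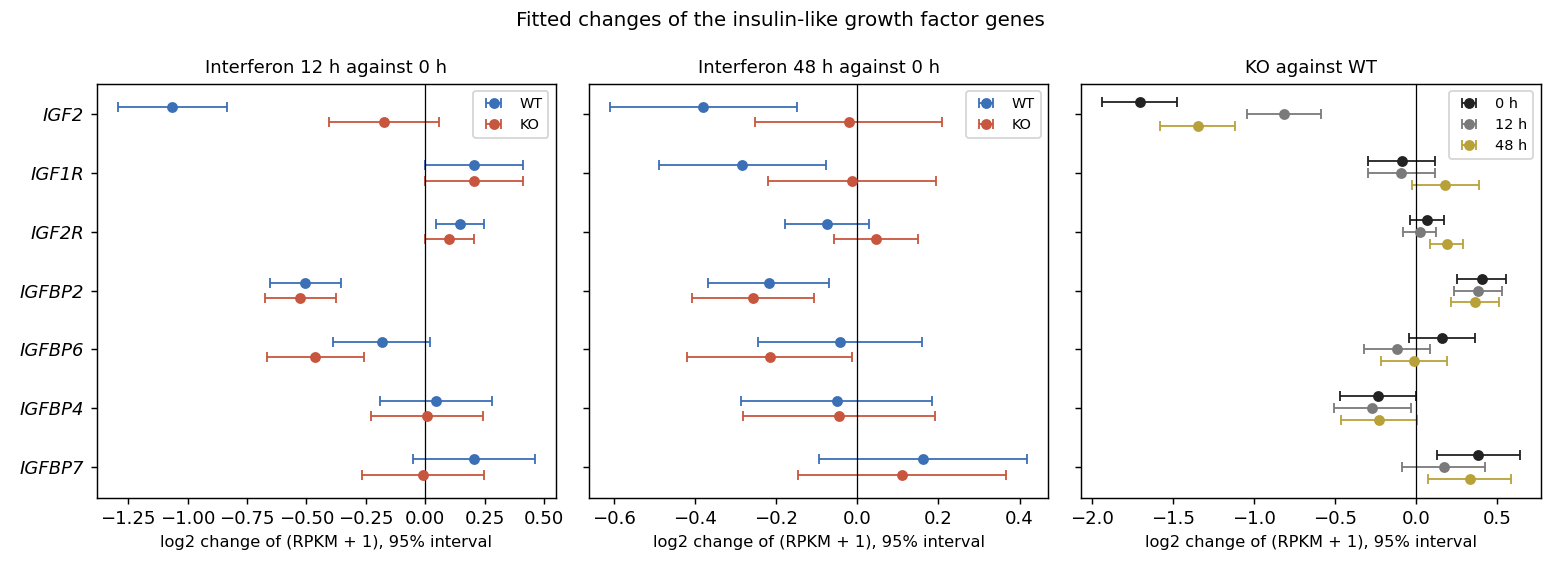
log2(RPKM + 1) differences of the 7 members in KO against WT at each time and in interferon against 0 h, with 95% intervals of the limma fit, not adjusted for the number of genes and on a separate scale in each panel. The points of IGF2 in KO against WT are a description. IGF2 is lowest in KO against WT and in WT at 12 h, and IGFBP2 lies above 0 in all genotype comparisons and below 0 in all interferon comparisons.

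Read as a set, the members other than IGF2 were called in 1 of 6, 1 of 6 and 2 of 6 cases in KO against WT at 0, 12 and 48 h by limma, all of them higher. The 6 include IGFBP4, which passed the filter only through WT, so nothing is read from its part in these counts, medians or interactions. Across all 13280 genes tested, 4.89%, 3.62% and 4.19% were called. The median differences of the 6 members were 0.12, -0.03 and 0.19, against 0.02, 0.01 and 0.01 over all genes. With IGF2 included, 3 of 7 members were called in WT at 12 h against 0 h, where 44.9% of all genes were, and 2 of 7 in KO, where 48.8% were. IGF2 also passed the filter only through WT and was below 1 RPKM in every KO library, so its KO tests say little. At 48 h against 0 h, 1 of 7 was called in WT (12.8% of all genes) and 1 of 7 in KO (13.3%). Between 12 and 48 h, 4 of 7 were called in WT (35.9% of all genes) and 2 of 7 in KO (41.7%). The members' shares in interferon thus lay on both sides of those of all genes, and 7 members are too few to read a difference from them. The genotype by interferon interaction was called for 0 of 6 members at 12 h and 0 of 6 at 48 h, by limma, against 0.0753% and 0.0828% of all genes, and 0 members had an unadjusted p under 0.05 at either time. The comparisons within a genotype share their 0 h or 12 h libraries.

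Outside the members, the pathway lists are read against the 4.89%, 3.62% and 4.19% of all genes that were called between the lines at 0, 12 and 48 h. Of 12 receptor adaptors tested, IRS1, the docking protein of IGF1R and the insulin receptor, was the only one called at 0 h. It was at 32.5 ± 0.623 RPKM in WT and 24.9 ± 1.06 in KO (-0.37, limma adjusted p = 0.000803). At 48 h it was at 27.1 ± 1.02 and 23.2 ± 1.50 RPKM (-0.22, adjusted p = 0.0429), a call lost in a fit on the 6 libraries alone (0.144) and without any 1 of them but KO replicate 2 (adjusted p = 0.0681 to 0.171). Of 29 genes of PI3K, AKT, mTOR and FOXO signalling, 0 were called at 0 h by limma, with 6 at an unadjusted p under 0.05. At 12 h, 2 were lower in KO, the stress-induced sestrins SESN1 (-0.28, limma adjusted p = 0.00768) and SESN2 (-0.29, adjusted p = 0.0322). At 48 h, 1 was higher, the translation repressor EIF4EBP1 (0.18, limma adjusted p = 0.0456). Of 6 genes for proteolysis and maturation, the secreted protease HTRA1 was lower in KO at 12 h (-0.27, limma adjusted p = 0.0446). Of 6 regulators of IGF2 transcription, HMGA2, a chromatin protein, was higher in KO at 12 h (0.22, limma adjusted p = 0.0157). The calls of SESN2, EIF4EBP1, HTRA1 and HMGA2 were each lost when some single libraries were left out (adjusted p = 0.0509 to 0.206), and that of SESN1 in a fit on its 6 libraries alone (0.0845). INSR, the insulin receptor, had group means of 0.59 to 1.12 RPKM and was not called in any comparison.

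The lists of pathway genes held calls in interferon at 12 h, where 44.9% of all genes were called in WT and 48.8% in KO, also with more genes lower than higher. Among 12 adaptors, 7 fell and 1 rose in WT, and 4 fell and 1 rose in KO. IRS2, SHC1 and SOS2, which link the receptor to PI3K and RAS, fell in both lines, IRS2 from 4.70 ± 0.513 to 3.26 ± 0.0493 RPKM in WT (-0.42, limma adjusted p = 0.00102). The adaptor that rose in KO was GRB2 (0.27, limma adjusted p = 0.0224). That call was lost without KO replicate 3 at 0 h (0.0644) or at 12 h (0.092). Among the 29 signalling genes, 12 fell and 5 rose in WT and 10 fell and 4 rose in KO. FOXO1, a transcription factor held back by AKT, fell from 11.4 ± 0.746 to 7.74 ± 0.253 RPKM in WT (-0.51, limma adjusted p = 8.08e-05) and from 12.5 ± 0.637 to 7.33 ± 0.144 in KO (-0.69, adjusted p = 3.23e-06). RICTOR, a subunit of mTOR complex 2, rose from 5.52 ± 0.085 to 8.51 ± 0.253 RPKM in WT (0.54, limma adjusted p = 4.56e-06) and from 5.28 ± 0.350 to 9.37 ± 0.577 in KO (0.72, adjusted p = 1.62e-07).

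The remaining lists were mixed at 12 h. Both tested genes of the list of other binding proteins, the matricellular CCN1 and CCN2, were lower in each line. CCN1 went from 103 ± 10.2 to 50.2 ± 0.469 RPKM in WT (-1.01, limma adjusted p = 3.61e-08) and from 85.3 ± 8.98 to 49.1 ± 2.42 in KO (-0.78, adjusted p = 5.95e-07). CCN2 had a limma adjusted p of 0.0405 in WT that was lost with median-of-ratios scaling (0.0701) and without 5 single libraries (0.0529 to 0.192). HTRA1 fell from 87.9 ± 1.68 to 44.9 ± 2.94 RPKM in WT (-0.96, limma adjusted p = 2.42e-08) and from 76.8 ± 4.25 to 37.2 ± 3.04 in KO (-1.03, adjusted p = 8.7e-09). Of the list for proteolysis and maturation, 3 of 6 fell and 1 of 6 rose in each line. STC2, an inhibitor of PAPPA, was higher at 48 h than at 0 h, at 16.5 ± 1.90 against 9.32 ± 1.54 RPKM in WT (0.77, limma adjusted p = 0.0104) and 20.3 ± 2.67 against 11.5 ± 4.56 in KO (0.82, adjusted p = 0.00705). The WT call of STC2 was lost without WT replicate 1 at 0 h (adjusted p = 0.0549), and the KO call in a fit on its 6 libraries alone (0.0675). IGF2BP2, which binds IGF2 mRNA, fell from 70.1 ± 3.74 to 49.8 ± 1.02 RPKM in WT (-0.48, limma adjusted p = 8.23e-08) and from 67.4 ± 0.433 to 51.1 ± 1.16 in KO (-0.39, adjusted p = 7.00e-07). In the 11p15 list, 5 of 11 genes fell and 1 rose in WT, where 44.9% of all genes were called, and 6 of 11 fell in KO, where 48.8% were, among them SLC22A18, a transporter gene of the imprinted region, at -0.63 (limma adjusted p = 0.00105) and -1.04 (adjusted p = 9.62e-06). Of 6 regulators of IGF2 transcription, 1 fell and 1 rose in WT, and 1 fell and 2 rose in KO. HMGA2 was at -0.36 in WT (limma adjusted p = 2.02e-05) and -0.17 in KO (adjusted p = 0.00961), the latter lost with median-of-ratios scaling (0.334). PLAGL1 was at 0.27 in WT (adjusted p = 0.0403) and 0.26 in KO (adjusted p = 0.0466). Both PLAGL1 calls were lost in a fit on the 6 libraries alone (0.0618 and 0.136). Over all genes tested the median change at 12 h was -0.09 in WT and -0.09 in KO. Of the genes called there, 2005 were higher and 3959 lower in WT and 2123 and 4362 in KO, and median-of-ratios scaling turned these into 2895 and 2712 in WT and 3156 and 3040 in KO.

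The genes whose pattern was most like that of IGF2 were ranked by Pearson correlation of log2(RPKM + 1) over the 18 libraries, among 13279 genes. The first 5 were ZBTB10 (r = 0.968), GPR50 (0.964), COL16A1 (0.943), APP (0.941) and GNE (0.938). ZBTB10 had group means of 3.07, 1.99 and 2.72 RPKM in WT and 1.03, 0.72 and 0.89 in KO at 0, 12 and 48 h. GPR50 had means of 4.45, 2.44 and 3.86 RPKM in WT and 0.35, 0.30 and 0.39 in KO. H19 stood at rank 140 (r = 0.788). When each genotype's mean was first subtracted, the first 5 were SPRED2 (r = 0.916), ENSG00000247134 (0.903), AGBL5 (0.896), NHS (0.889) and GPR50 (0.884), and H19 stood at rank 302 (0.765). Among the members, IGFBP2 had an r with IGF2 of -0.33 before and 0.74 after that subtraction, IGF2R of -0.70 and -0.65, and IGFBP7 of -0.80 and -0.41. The gene most like each other member was CCDC134 for IGF1R (r = 0.843), STAP2 for IGF2R (0.931), SULT1A1 for IGFBP2 (0.955), DAPK1 for IGFBP4 (0.899), LRRC51 for IGFBP6 (0.919) and ZFP30 for IGFBP7 (0.879). These are descriptions over points that share libraries, lines and times. The first ranking for IGF2 rests largely on the gap between the lines, on which IGF2 was selected. IGF2 was below 1 RPKM in every KO library, where log2(RPKM + 1) compresses its changes. Its change at 12 h was -0.17 in KO and -1.06 in WT, so the ranking after subtraction mostly reflects the WT libraries.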

How the data were processed

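RNA from 18 cultures was sequenced as stranded mRNA libraries, per the labels' protocols. The authors deposited 1 table of RPKM values for 16472 Ensembl gene IDs, of which 15666 carry a symbol, rounded to 2 decimals. Per the submitters' processing notes, the tools were cutadapt, STAR 2.6.1, RSEM 1.3.0 and limma 3.50.3 with hg19, with no role given for each. How RPKM was computed and which reads made up the total are not given in the sources used here, and the total depth is unknown. Apart from the RefSeq promoter windows, which are on GRCh38.p14, no coordinates are given, because the annotation at hand is not of hg19. Relative depth was recovered from the low values of 636 genes, and 99.4% of the library pairs compared lay within 3% of the fitted depths.

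The fits used log2(RPKM + 1). A gene was tested where 3 or more libraries reached an RPKM of 1, which left 13280. One limma 3.58.1 model (R 4.3.3) with a mean per group and a variance trend was fitted to the 18 libraries together, so the groups share 1 estimate of the spread. Benjamini-Hochberg adjustment ran over all genes in each of 11 comparisons, with a threshold of 0.05. Folds on this scale understate the change of low genes. IGFBP3 had been planned as a member, so 6 members other than IGF2 entered the genotype comparisons. Replicates of a group correlated at 0.985 to 0.989 across genes and shared 0.851% to 1.17% identical values.

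The members and lists were chosen with earlier results of these data known. The text names all members, at most the 4 called genes of largest change per list and comparison, SP100, and the genes most alike by correlation, 5 for IGF2 and 1 for each other member. Of the lists for other ligands (IGF1 and insulin) and for other receptors, 0 of 2 and 1 of 2 genes were in the table. Melanocyte markers summed to 0.98 to 2.34 RPKM (2 of 7 in the table), endothelial markers had none of 4 in the table, and the immune list held CD68 alone. Alternatives were a pseudocount of 0.1, no filter, a mean of at least 5 RPKM, median-of-ratios scaling, no variance trend, a replicate block, the libraries of a comparison alone, and leaving out each library.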

Additional observations from a re-analysis of the deposited data

How the results depend on the processing

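Of 2488 single values recomputed, 2219 kept their direction and their side of the threshold, 206 lost a call, 16 gained one and 47 changed sign. The IGF2 interactions, which have no test, counted as kept where the sign held and the value moved by less than the residual SD. None of the sign changes concerned a called value. The differences of IGF2 between lines went to -2.95, -2.00 and -2.52 at 0, 12 and 48 h with a pseudocount of 0.1. That pseudocount left 0 members called in WT at 48 h against 0 h, where the fit on those libraries alone called 2. Without a variance trend, 2 members were called in KO against WT at 0 h and 1 in KO at 48 h against 12 h. No filter gave 1 in the latter, as did the fit on its libraries alone. Median-of-ratios scaling called 4 in KO at 12 h against 0 h. In KO against WT at 48 h, the fit on those libraries alone called 1. With the replicate number as a block, 1 was called there too, IGFBP2, and IGF2R was not (adjusted p = 0.0601). Leaving out single libraries gave 1 to 2 members in KO against WT at 48 h, 0 to 1 in WT at 48 h against 0 h, 0 to 1 in KO at 48 h against 0 h and 1 to 2 in KO at 48 h against 12 h. A mean of at least 5 RPKM left out IGF2, IGFBP4 and IGFBP7. The cause of these changes was not tested.

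The replicate numbers did not pair the samples: same-numbered libraries had correlations of deviations of -0.0972 to 0.157 (median -0.0126), and 0 of 15 pairs of groups had every value over 0.1. The block lowered the calls in KO against WT from 650 to 533, 481 to 394 and 556 to 465.

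Sign changes on the log2 scale were as follows. Median-of-ratios scaling gave 0.054 for IGFBP7 in KO at 12 h against 0 h, 0.0011 for IGF1R in KO at 48 h against 0 h and 0.0098 for the IGF1R interaction at 12 h. A pseudocount of 0.1 gave 0.0011 for that interaction and -0.016 for the IGFBP4 interaction at 48 h. Without single libraries, KO against WT ranged from -0.0083 to 0.048 for IGF2R at 12 h and from -0.12 to 0.058 for IGFBP6 at 48 h. WT at 12 h against 0 h ranged from -0.025 to 0.12 for IGFBP4. WT at 48 h against 0 h ranged from -0.12 to 0.028 for IGFBP4 and from -0.11 to 0.068 for IGFBP6, and against 12 h from -0.12 to 0.017 for IGFBP7. KO at 12 h against 0 h ranged from -0.053 to 0.054 for IGFBP4 and from -0.12 to 0.081 for IGFBP7. KO at 48 h against 0 h ranged from -0.058 to 0.026 for IGF2, from -0.057 to 0.058 for IGF1R and from -0.081 to 0.015 for IGFBP4, and against 12 h from -0.099 to 0.0079 for IGFBP4. Interactions at 12 h ranged from -0.11 to 0.070 for IGF1R, from -0.093 to 0.040 for IGFBP2 and from -0.12 to 0.034 for IGFBP4. Those at 48 h ranged from -0.11 to 0.023 for IGFBP2, from -0.073 to 0.076 for IGFBP4 and from -0.12 to 0.020 for IGFBP7.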
